A study of Mus musculus with 18 samples.

Results

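The Slc25 genes encode the mitochondrial carriers, a family of nuclear-encoded transporters of the inner mitochondrial membrane. The members described here are the 36 genes whose symbol starts with Slc25a and that were listed in all 18 libraries, out of 10181 genes listed in all 18 and 14002 listed in any. A further 4 Slc25 genes had reads in some libraries and were not members: Slc25a2 with 16 reads in 5 libraries, Slc25a35 with 161 reads in 16, Slc25a41 with 3 reads in 2 and Slc25a47 with 126 reads in 17.

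Counts were made from RAW264.7, an established macrophage-like cell line of the mouse, given 200 µM of the uridine analogue 4-thiouridine (4sU) for a set time. Each of 9 lysates gave 1 library of alkali-fragmented cytoplasmic RNA (input) and 1 library of ribosome-protected fragments from monosomes (footprints). The footprints of a message could thus be set beside its level and its age. Experiment 1 had 6 lysates, at 0, 20, 40, 60, 90 and 120 min of 4sU, and experiment 2 had 3, at 20, 30 and 40 min. The cells carried no engineered allele and received no other agent, apart from cycloheximide, which was in the wash and lysis buffers of every lysate. The 0 min lysate of experiment 1 was the only one without 4sU, and every other time except 20 and 40 min had 1 lysate. The labels do not state whether lysates came from separate cultures, so p-values measure the spread between these lysates, which may be technical.

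Carriers exchange metabolites between cytosol and mitochondrial matrix: ADP and ATP, phosphate, citric acid cycle acids, amino acids, cofactors and iron. They are made on cytosolic ribosomes and inserted into the inner membrane, most of them without a cleaved presequence, by way of the small Tim chaperones and the TIM22 complex. In macrophages the citrate carrier is known for supplying cytosolic acetyl-CoA. 4sU is built into new RNA, and chemical conversion makes it read as C in place of T. A read with a T-to-C conversion is therefore taken as RNA made during labelling. Without 4sU, 0.289% of input reads and 0.298% of footprint reads also held a conversion. The main fits did not subtract this share.

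The sequences that bear on the results are the starts of coding regions, because a conversion can be seen only where the message has a T. Each stretch below is coding bases 1 to 90 in the GENCODE vM21 annotation of GRCm38, written 5′ to 3′, with every T in capitals. Slc25a5 and Slc25a4 are the ADP/ATP carriers, which parted in ribosome occupancy. Slc25a22 and Slc25a51 had the highest and lowest footprint-to-input ratios. Slc25a25 and Slc25a1 stood at the high and low ends of relative labelling in input, among the carriers tested for it.
Slc25a5: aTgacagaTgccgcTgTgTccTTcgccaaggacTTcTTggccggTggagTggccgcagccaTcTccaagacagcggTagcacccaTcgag
Slc25a4: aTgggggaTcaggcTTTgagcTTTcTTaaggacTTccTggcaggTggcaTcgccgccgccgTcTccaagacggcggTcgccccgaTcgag
Slc25a22: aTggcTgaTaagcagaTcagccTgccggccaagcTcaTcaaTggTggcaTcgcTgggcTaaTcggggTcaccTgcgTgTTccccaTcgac
Slc25a51: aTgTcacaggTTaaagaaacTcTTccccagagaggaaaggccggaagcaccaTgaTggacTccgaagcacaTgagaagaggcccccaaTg
Slc25a25: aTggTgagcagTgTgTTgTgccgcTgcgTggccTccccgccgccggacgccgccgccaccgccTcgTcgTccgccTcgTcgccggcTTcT
Slc25a1: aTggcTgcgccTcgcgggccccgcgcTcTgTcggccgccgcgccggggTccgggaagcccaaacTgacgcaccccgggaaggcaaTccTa

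The stretches of Slc25a5 and Slc25a4 hold 17 and 19 T and match at 66 of the 90 positions, of which 15 are shared T. Over their whole coding regions, 894 bases each, 692 bases are identical (77.4%). Slc25a5 lies on the plus strand at chrX:36795651-36798807 and Slc25a4 on the minus strand at chr8:46206797-46211284. Slc25a25 holds 18 T and Slc25a1 10 T in these stretches, and their coding regions are 19.26% and 18.44% T, so this pair differed little in the T available per base. Slc25a22, on the minus strand of chromosome 7, holds 19 T in its stretch, and Slc25a51, on the minus strand of chromosome 4, holds 12.

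Some carrier reads can be shared with other loci. Of the 28-base words in the Slc25a5 coding region, 87.8% also occur in another annotated gene, among them the copy named Slc25a5-ps. The share was 79.8% for Slc25a36, 41.4% for Slc25a40, 21.3% for Slc25a37, 14.8% for Slc25a51 and 11.8% for Slc25a3, and 0 for the other 30 members, Slc25a4 included. How reads that match several loci were assigned is not stated in the sources used, so the values of these 6 genes are uncertain. An annotated gene overlaps 11 members, such as Rnf167 at Slc25a11, Naif1 at Slc25a25 and Gm17168 at Slc25a23, and whether counting used strand is not stated either.

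Libraries held 6230562 to 87536081 reads, those of experiment 2 being deeper (26359243 or more) than those of experiment 1 (23327760 or fewer). Carriers took 0.309% to 0.361% of input reads and 0.314% to 0.412% of footprint reads. All 9 macrophage markers examined had reads in every library, with Lyz2, Csf1r and Cd14 high and Itgam low (1.70 to 2.69 CPM in input). Of 17 markers of T and B cells, epithelium, fibroblasts, endothelium, liver and muscle, 10 had no read in any library, and the highest of the rest was Acta1 at up to 2.58 CPM. In bulk libraries fewer expressing cells and less RNA per cell cannot be told apart.

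Levels were compared between carriers as normalised CPM (library-scaled counts) per coding kilobase, since the T content of the reads followed that of the coding region (r = 0.936 over 4490 genes in input, and 0.958 over 15 carriers). The ADP/ATP carrier Slc25a5 was the most abundant, at 991 ± 158 CPM per coding kilobase in input (SD, n = 9 libraries). The phosphate carrier Slc25a3, which brings in the phosphate for ATP synthesis, followed at 460 ± 49.9, and the second ADP/ATP carrier, Slc25a4, at 359 ± 75.1. These 3 genes made up 55.6% of all carrier CPM in input and 74.3% in footprints.

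The next levels in input were those of Slc25a39, a carrier needed for mitochondrial glutathione, at 173 ± 35.8 CPM per coding kilobase, and of the aspartate-glutamate carrier Slc25a12 at 137 ± 11.6. The oxoglutarate carrier Slc25a11 stood at 106 ± 9.83. Slc25a13, Slc25a1, Slc25a17, Slc25a10, Slc25a51 and Slc25a46 followed, from 64.8 down to 42.4. Slc25a13 and Slc25a1 did not differ beyond their SD, nor did neighbours among Slc25a17, Slc25a10, Slc25a51 and Slc25a46. The lowest were Slc25a42 at 0.82, Slc25a53 at 0.56 and Slc25a18 at 0.45, with as few as 2 or 3 reads in a library. Input levels thus spanned 2210-fold and footprint levels 9706-fold. The order changed between the materials: Slc25a39 went from rank 4 in input to 9 in footprints, Slc25a51 from 11 to 26, and the glutamate carrier Slc25a22 from 29 to 11.

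**Figure D1:**
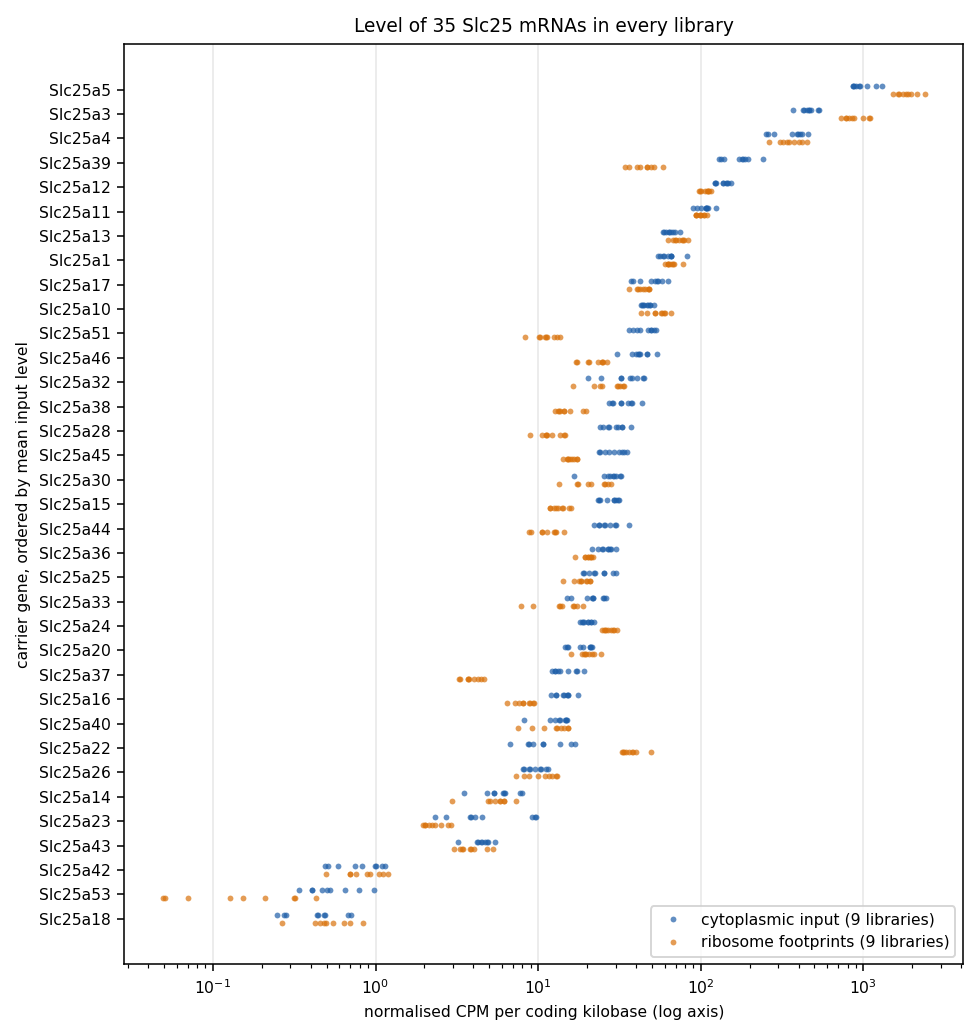
Normalised CPM per coding kilobase (log axis) of 35 carriers in the 9 input and 9 footprint libraries, each point 1 library, ordered by mean input level. Slc25a5, Slc25a3 and Slc25a4 lead in both materials, and the points of Slc25a39, Slc25a51 and Slc25a22 part by material.

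The same gene varied little between input libraries, with a median coefficient of variation of 15.7% and a lowest of 6.33% for the dicarboxylate carrier Slc25a10. The highest, 55.2%, was that of Slc25a23, a calcium-regulated ATP-Mg/phosphate carrier. Its input level was 13.4 CPM at 90 min of experiment 1, 13.6 at 20 min and 12.9 at 30 min of experiment 2, and 3.26 to 6.30 in the other 6 libraries. Its footprints, at 2.73 to 4.07 CPM, showed no such high libraries.

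Ribosome occupancy was read as footprints over input, with labelling time as a term. Of the 36 carriers, 6 were higher in footprints and 19 lower (edgeR quasi-likelihood test, adjusted p under 0.05), against 35.2% of 10592 genes called higher and 40.3% called lower. The median carrier stood at a log2 ratio of -0.34 and the median of all genes at -0.04. The 9 footprint libraries did not overlap the 9 input libraries for 4 carriers that were higher and 12 that were lower, against 16.2% and 20.9% of all genes. These ratios are relative to the TMM scaling of the libraries and give no absolute number of ribosomes per message.

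The ADP/ATP carriers behaved differently from each other. Slc25a5 had 767, 837 and 1160 normalised CPM in input and 1351, 1629 and 2142 in footprints (lowest, median, highest of 9). The materials did not overlap, and the footprint level was 1.88-fold the input level (log2 0.91, SE 0.06, adjusted p = 2.79e-09, higher in 9 of 9 lysates). Slc25a4 had 227, 347 and 408 in input and 234, 314 and 401 in footprints. Its ranges overlapped almost entirely, footprints were higher in 5 of 9 lysates, and the log2 ratio was 0.00 (SE 0.10, adjusted p = 0.987). The difference between these 2 genes was not itself tested, and 87.8% of Slc25a5 words but none of Slc25a4 occur elsewhere in the annotation.

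Slc25a3, the phosphate carrier, had 399, 497 and 571 CPM in input and 783, 920 and 1180 in footprints. All footprint libraries lay above all input libraries, and the ratio was 1.92-fold (log2 0.94, SE 0.07, adjusted p = 7.80e-09). Of the ATP-Mg/phosphate carriers, Slc25a24 was higher in footprints, at 25.6, 28.9 and 31.6 CPM in input against 35.3, 38.2 and 43.3 in footprints (1.37-fold, adjusted p = 2.26e-05). Its ranges did not overlap. The other members of this group were lower, Slc25a23 with a log2 ratio of -1.23 (SE 0.27) and Slc25a25 with -0.34 (SE 0.09). The Slc25a23 materials overlapped, and by lysate its log2 ratio was -2.06 at 90 min of experiment 1. It was -1.92 and -1.94 at 20 and 30 min of experiment 2. These were the lysates with its high input levels, and the others gave -0.95 to -0.06.

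Among aspartate and glutamate carriers, 2 of 4 were higher and 1 lower. Slc25a22, which imports glutamate with a proton, had 6.52, 10.3 and 16.4 CPM in input and 31.9, 35.2 and 48.0 in footprints. The lowest footprint library lay above the highest input library. This was the largest positive ratio of the family, 3.23-fold (log2 1.69, SE 0.16, adjusted p = 2.06e-07), from 46 to 900 input reads per library. It was 2.06 in experiment 1 and 1.16 in experiment 2 on the log2 scale. Slc25a13 was slightly higher (log2 0.18, SE 0.06) and Slc25a12 slightly lower (-0.36, SE 0.06), and Slc25a18 had too few reads to read a direction. Slc25a13 was not called in experiment 1 alone (0.12, adjusted p = 0.134) or without the 20 min or the 30 min lysate of experiment 2 (adjusted p = 0.0509 and 0.0508), and Slc25a12 was not called in experiment 2 alone (-0.18).

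Of the citrate and dicarboxylate carriers, Slc25a10, which exchanges dicarboxylates for phosphate, was called higher at 36.7, 40.3 and 44.4 CPM in input and 37.2, 49.1 and 56.6 in footprints. The ranges overlapped, and footprints were higher in 8 of 9 lysates (log2 0.24, SE 0.08, adjusted p = 0.0105). In experiment 1 alone it was 0.12 and not called (adjusted p = 0.199), and in experiment 2 alone it was 0.43. The citrate carrier Slc25a1 (0.07, SE 0.06) and Slc25a11 (-0.08, SE 0.06) were not called, though DESeq2 called Slc25a1 higher (0.12, adjusted p = 0.0343).

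The lowest ratio belonged to Slc25a51, the carrier that brings NAD into mitochondria. It had 34.0, 44.9 and 50.2 CPM in input and 7.87, 10.5 and 12.9 in footprints. The 2 materials were well apart, with footprints at 0.249 of input (log2 -2.01, SE 0.09, adjusted p = 1.60e-11). Slc25a39 had 140, 194 and 262 CPM in input and 36.7, 50.5 and 62.9 in footprints. No library overlapped, and footprints were at 0.261 of input (log2 -1.94, SE 0.09, adjusted p = 2.13e-11). Slc25a40, closely related to Slc25a39, was not called (-0.10, SE 0.09). Of all 11 carriers of cofactors, nucleotides and glutathione, 7 were lower and 0 higher, with 0 higher at an unadjusted p under 0.05 and 0 by DESeq2. Those lower included Slc25a16 (-0.81, SE 0.10) and the pyrimidine nucleotide carriers Slc25a33 (-0.61, SE 0.09) and Slc25a36 (-0.37, SE 0.06).

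Both iron carriers, which supply iron for heme and iron-sulfur clusters, were lower in footprints. Slc25a37 (mitoferrin-1) had 12.3, 13.9 and 19.4 CPM in input and 3.30, 3.79 and 4.68 in footprints. Slc25a28 (mitoferrin-2) had 26.2, 33.0 and 40.5 in input and 9.67, 12.3 and 15.99 in footprints. Neither gene had overlapping materials, with log2 ratios of -1.94 (SE 0.12, adjusted p = 5.29e-10) and -1.30 (SE 0.09, adjusted p = 2.65e-09). Slc25a53, whose substrate is unclear, was also called lower (-1.83, SE 0.32), but on 1 to 18 footprint reads per library.

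Of the acylcarnitine and amino acid carriers, 3 of 4 were lower: Slc25a44, which carries branched-chain amino acids (-1.24, SE 0.10), Slc25a38, linked to glycine and heme synthesis (-1.15, SE 0.08), and the ornithine carrier Slc25a15 (-1.02, SE 0.08). The carnitine-acylcarnitine carrier Slc25a20 was not called (0.14, SE 0.10). Slc25a46, an outer-membrane member that shapes mitochondria, was lower (-0.93, SE 0.10), as were Slc25a45 (-0.86, SE 0.09) and Slc25a30 (-0.36, SE 0.07). Slc25a14, Slc25a17, Slc25a26, Slc25a42 and Slc25a43 were not called. Over the 36 carriers the log2 ratio had r = 0.306 with the coding share of the transcript and -0.02 with the log2 coding length, and over 10088 genes -0.148 and -0.309. These are descriptions across genes, which are not independent.

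**Figure D2:**
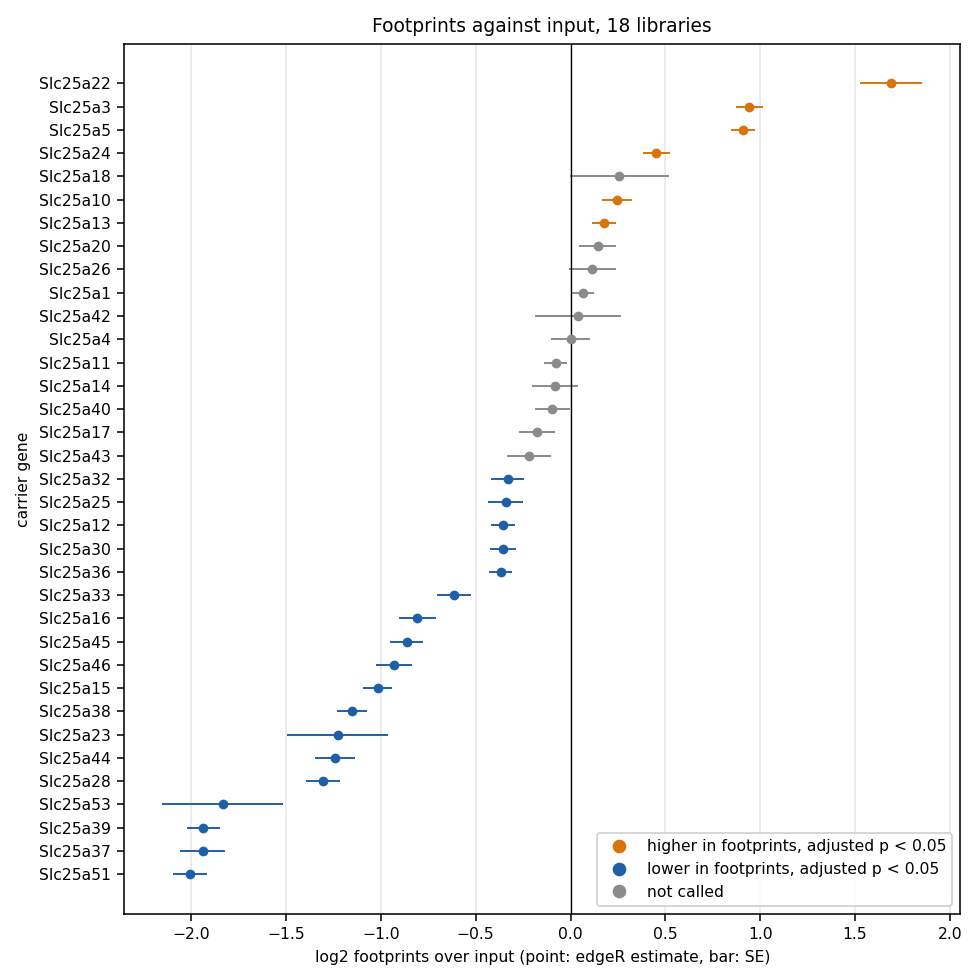
Log2 footprints over input for 35 carriers, ordered by value, as edgeR estimates (points) with SE (bars), coloured by call. Slc25a22, Slc25a3 and Slc25a5 lie at 1.69, 0.94 and 0.91, and Slc25a51, Slc25a37 and Slc25a39 at 0.249 to 0.261 of the input level.

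Other genes of the carrier pathway were counted in the same fit, in which 35.2% of all genes were higher and 40.3% lower. Of the carriers with other symbols, Ucp2 (-1.37, SE 0.18) and the outer-membrane insertase relative Mtch1 (-0.58, SE 0.09) were lower and Mtch2 was not called (-0.15, SE 0.09), with 0 of 3 higher. Of 15 import components used by carriers, 5 were higher, led by Tomm7 (1.37) and the small chaperone Timm9 (1.08), and 4 lower, with the lowest Timm10b (-1.64). Of 11 presequence import genes 6 were higher and 1 lower, and of 18 other mitochondrial transport proteins 10 were higher, such as the outer-membrane channel Vdac1 (1.55), and 2 lower. Of 23 enzymes that use carried metabolites 14 were higher, such as Mdh2 (2.42), Shmt2 (1.23) and Cs (1.03), and 5 lower. The medians of these 4 last groups were 0.10, 0.25, 0.20 and 0.45, against -0.34 for the Slc25 carriers and -0.04 for all genes.

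Change over labelling was tested as a log2 slope per hour of 4sU. In input, 33 carriers were tested, with 1 rising and 2 falling, against 0.413% and 5.83% of 9927 genes. Of the markers of other cells only the muscle gene Acta1 had enough reads to be tested, and it rose in input (1.46 per hour, adjusted p = 0.0108) and in footprints (1.24, adjusted p = 0.00647), at no more than 2.58 CPM. Its part in the carriers' slopes was not tested. In footprints, 35 were tested, with 0 rising and 6 falling, against 7.13% and 13.5% of 10226 genes. In footprints 3 carriers had positive slopes at an unadjusted p under 0.05, and DESeq2 called 1, Slc25a3.

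Slc25a32, which carries folate or flavin, fell in both materials. In experiment 1 its input level was 42.1, 38.7, 42.5, 30.7, 23.2 and 19.2 CPM from 0 to 120 min, and its footprint level 31.6, 30.4, 29.1, 20.8, 22.7 and 15.5. In experiment 2 input held 34.8, 30.8 and 35.97 CPM and footprints 29.4, 32.2 and 23.3 at 20, 30 and 40 min. The values at 60 min and later were the low ones, and the slopes were -0.57 (SE 0.10, adjusted p = 0.0146) and -0.51 (SE 0.10, adjusted p = 0.0045). Slc25a30, an uncoupling-protein-like carrier, fell by 0.42 per hour in input (SE 0.08, adjusted p = 0.0203) and by 0.56 in footprints (SE 0.08, adjusted p = 0.00162). Its input level went from 28.4 CPM at 0 min to 14.5 at 120 min, the lowest of the 9 libraries, and its footprint level from 24.6 to 11.7, also the lowest.

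In footprints alone the calls also took in Slc25a33 (-0.53, SE 0.16), Slc25a14 (-0.51, SE 0.13), Slc25a40 (-0.47, SE 0.12) and Slc25a44 (-0.33, SE 0.10), whose input slopes were -0.40, -0.22, -0.31 and -0.10. The footprint level of Slc25a33 was 13.1, 12.8, 15.6, 15.9, 8.94 and 7.54 CPM over experiment 1 and 18.1, 16.8 and 13.4 in experiment 2. The low values were those at 90 and 120 min.

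Slc25a5 rose in input by 0.31 per hour (SE 0.07, adjusted p = 0.0296). Its input level was 809, 837, 768, 937, 1065 and 1160 CPM over experiment 1 and 767, 778 and 853 in experiment 2, and the 3 latest times were the 3 highest libraries. Its footprint slope was 0.21 (SE 0.08, adjusted p = 0.0792). Slc25a3 had slopes of 0.17 (SE 0.08, adjusted p = 0.213) in input and 0.24 (SE 0.08, adjusted p = 0.056) in footprints, and Slc25a4 0.23 (SE 0.13) and 0.21 (SE 0.10), none of them called. With experiment as a block, the Slc25a3 input slope was called, at 0.21 (adjusted p = 0.0422).

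The time calls rested on single lysates, since all times from 60 min on had 1 lysate each. Without the 120 min lysate 0 carriers were called in either material, with footprint slopes of -0.54 for Slc25a30, -0.42 for Slc25a32, -0.35 for Slc25a33, -0.31 for Slc25a14, -0.34 for Slc25a40 and -0.33 for Slc25a44. The footprint fall of Slc25a44 was also not called without the 0, 20, 40 or 90 min lysate of experiment 1 (adjusted p = 0.0503 to 0.12). That of Slc25a33 was not called in experiment 1 alone (-0.41, adjusted p = 0.0866), without the 90 min lysate or without the 20 or the 30 min lysate of experiment 2 (adjusted p = 0.0506 to 0.122). Without the 90 min lysate the 2 input falls were not called either (adjusted p = 0.056 for Slc25a30 and 0.0725 for Slc25a32). The Slc25a5 rise was not called without the 20, 60, 90 or 120 min lysate of experiment 1 or the 20 min lysate of experiment 2, with slopes of 0.27 to 0.31. The footprint-to-input ratio itself changed with time for 0 of 36 carriers by edgeR and by DESeq2, with 0 at an unadjusted p under 0.05, and for 0% of 10592 genes.

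**Figure D3:**
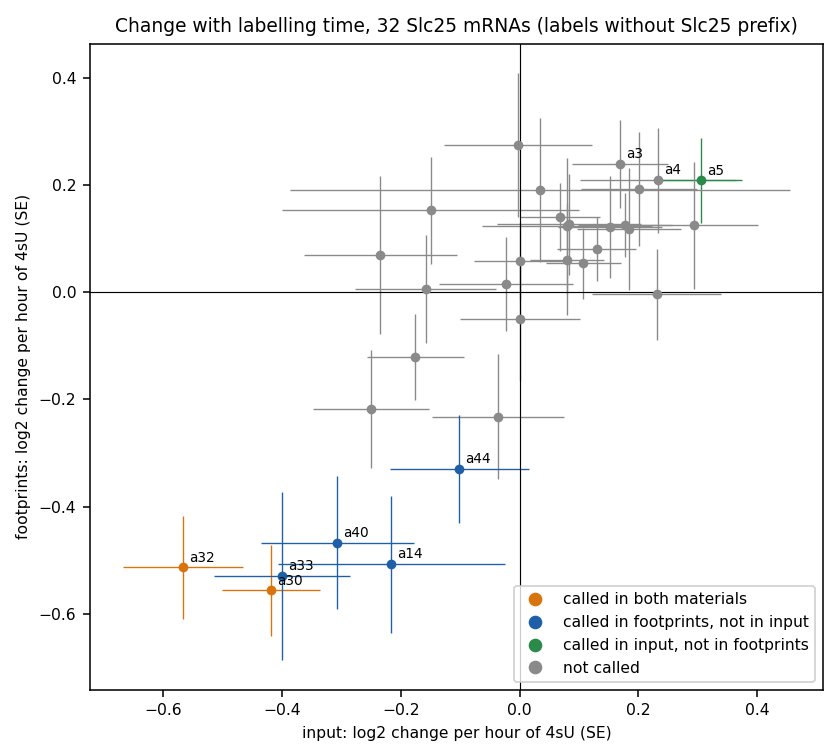
Log2 change per hour of 4sU in input (x axis) and in footprints (y axis) for 32 carriers tested in both, with SE bars, coloured by call. Slc25a32 and Slc25a30 lie low in both materials, and Slc25a3, Slc25a4 and Slc25a5 lie together at positive slopes.

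The experiments could be compared at 20 and 40 min, with 2 lysates each. In input 3 carriers were higher in experiment 2 and 6 lower, against 22.8% and 18.2% of 10589 genes. Slc25a22 was higher, at 16.4 and 13.2 CPM against 8.53 and 6.52 (log2 1.06, SE 0.19, adjusted p = 0.00178), and Slc25a4 lower, at 227 and 252 against 367 and 373 (-0.55, SE 0.11, adjusted p = 0.00309). The 2 experiments did not overlap for either gene. The others were Slc25a23 (1.48, SE 0.44) and Slc25a3 (0.29, SE 0.09) above, and Slc25a39 (-0.35, SE 0.09), Slc25a17 (-0.42, SE 0.12), Slc25a44, Slc25a45 and Slc25a38 below. The Slc25a3, Slc25a38 and Slc25a45 calls in input were lost when any 1 of the 4 lysates was left out. Those of Slc25a23, Slc25a17, Slc25a39 and Slc25a44 were lost in 3 of these 4 fits, and those of Slc25a22 and Slc25a4 in 1. Each such fit leaves 1 lysate in 1 of the experiments. In footprints Slc25a10 was higher (0.40, SE 0.10) and Slc25a26 (-0.64, SE 0.17) and Slc25a46 (-0.44, SE 0.12) lower, against 7.47% and 6.13% of genes. Each of these footprint calls was lost in 3 of the 4 fits with 1 lysate left out.

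The ratio differed between experiments for 4 carriers, with Slc25a20 (0.61, SE 0.18) and Slc25a10 (0.44, SE 0.14) higher in experiment 2 and Slc25a22 (-1.05, SE 0.23) and Slc25a3 (-0.43, SE 0.13) lower, against 8.1% and 13.6% of genes. With lysate as a block, Slc25a10 and Slc25a3 were not called (adjusted p = 0.0696 and 0.0629), nor were they when any 1 of the 4 lysates was left out (adjusted p = 0.0823 to 0.309 and 0.054 to 0.412). Without the 40 min lysate of experiment 1, 0 carriers were called in input, in footprints or in the ratio, and without its 20 min lysate 1 was called higher and 1 lower in input and 0 in the others. Without the 20 min lysate of experiment 2, the counts were 1 higher and 2 lower in input, 2 and 4 in footprints and 2 and 1 in the ratio. Without its 40 min lysate, 1 carrier was lower and 0 higher in footprints. Experiment and sequencing depth cannot be told apart.

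Relative labelling was the log2 odds that a read of the gene carried a conversion, less those of the median gene in that library, over the 8 labelled lysates. A high value was read as more of the RNA made during labelling, though a read with more T has more places for a conversion. Input reads held 5.46 T on average for Slc25a1 and 8.56 for Slc25a3. In input 24 carriers had enough reads, with 10 above the median gene and 8 below (limma, adjusted p under 0.05), against 35.2% and 35.9% of 7045 genes. In footprints 25 were tested, with 8 above and 8 below, against 32.4% and 34% of 6778 genes. Counted as conversions per T position, 9 were above and 8 below in input, and 6 above and 9 below in footprints.

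Slc25a25, a calcium-regulated ATP-Mg/phosphate carrier, was by far the most labelled. Its converted share in input was 0.315% without 4sU and 3.78%, 19.9%, 38.7%, 44.4% and 64.8% at 20, 40, 60, 90 and 120 min of experiment 1. The 120 min share had a 95% Wilson interval of 58.6% to 70.5%, on counting error alone. Experiment 2 gave 2.41%, 7.84% and 12.7% at 20, 30 and 40 min, below experiment 1 at equal times. In footprints the shares were 0.161%, 3.16%, 18.2%, 36.2%, 43.9% and 56.4%, and 0.826%, 5.19% and 6.74%. The relative log2 odds were 3.18 in input (SE 0.23, adjusted p = 2.26e-07) and 3.57 in footprints (SE 0.28, adjusted p = 9.03e-07). Counted per T position they were 3.02 and 3.38, and at 120 min 15.4 of 100 T positions in input reads were converted.

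The other strongly labelled messages were those of Slc25a32 (1.54, SE 0.19 in input), Slc25a33 (1.22, SE 0.28), Slc25a51 (1.17, SE 0.18) and Slc25a44 (1.06, SE 0.22), each above the median gene in footprints too, at 1.34, 1.56, 1.51 and 1.24. Slc25a32 input reads were converted in 1.75%, 4.33%, 12.98%, 14.1% and 36.1% at 20 to 120 min of experiment 1, and 0.942%, 4.67% and 4.91% in experiment 2. The share rose with each longer labelling. Slc25a33 was not called in input in experiment 2 alone (0.40, adjusted p = 0.337). Above the median gene in input were also Slc25a37, Slc25a30, Slc25a28 and Slc25a36, so that both iron carriers and 5 of 7 tested carriers of cofactors, nucleotides and glutathione were among the 10 called. The ornithine carrier Slc25a15 was called in footprints (1.12, SE 0.31) and stood at -0.04 (SE 0.21) in input.

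The citrate carrier Slc25a1 and Slc25a39 had the lowest relative labelling of the 24 carriers tested in input, and their values differed by less than the SE. The converted shares below are not set relative to the median gene, and on that scale at 120 min Slc25a39, at 2.41%, was under Slc25a1. The converted share of Slc25a1 was 0%, 0.693%, 1.06%, 1.79% and 6.49% at 20 to 120 min of experiment 1, and 0.139%, 0.608% and 0.638% in experiment 2. The highest, at 120 min (interval 4.61% to 9.06%), was far under that of Slc25a25, and 1.54 of 100 T positions were converted. Its relative log2 odds were -1.59 (SE 0.21, adjusted p = 3.72e-05) in input and -0.88 (SE 0.20) in footprints. Slc25a39 stood at -1.58 (SE 0.21, adjusted p = 2.91e-05) and -1.08 (SE 0.25), followed in input by Slc25a11 (-1.12, SE 0.16), Slc25a17, a peroxisomal cofactor carrier (-0.83, SE 0.21), and Slc25a12 (-0.67, SE 0.15). In footprints the lowest was Slc25a10 (-1.56, SE 0.35), on as few as 1 converted read in a library, and Slc25a13 stood at -0.95 (SE 0.21).

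Of the 3 most abundant carriers, Slc25a3 was below the median gene in both materials (-0.45, SE 0.17, and -0.63, SE 0.18), with 0.674%, 1.71%, 2.23%, 3.10% and 5.23% of input reads converted at 20 to 120 min of experiment 1. Slc25a4 was below it in input (-0.44, SE 0.12) and at 0.00 (SE 0.14) in footprints, and Slc25a5 was called in neither (-0.15, SE 0.19, and 0.17, SE 0.21). The Slc25a3 and Slc25a13 calls in input were lost with experiment as a block (adjusted p = 0.0516 and 0.0502), as was that of Slc25a28 (adjusted p = 0.0516). These 3 calls were also lost without the 60, 90 or 120 min lysate, those of Slc25a3 and Slc25a13 without the 40 min lysate of experiment 2, and that of Slc25a13 without its 30 min lysate.

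**Figure D4:**
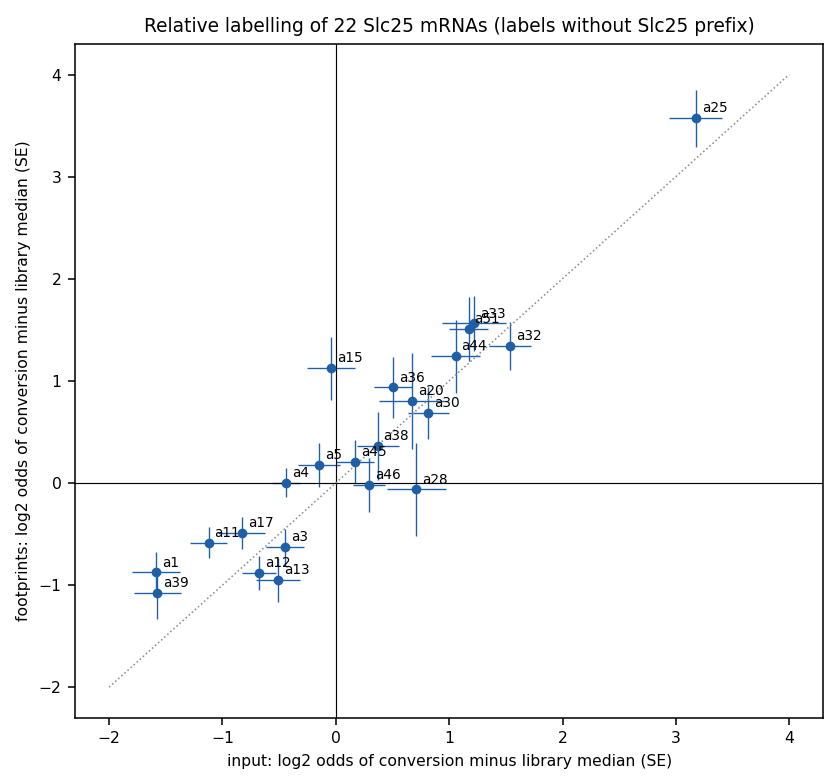
Relative labelling in input (x axis) and footprints (y axis) of the 22 carriers tested in both, in log2 odds relative to the median gene, with SE bars; the dotted line marks equal values. Slc25a25 stands alone at 3.18 and 3.57, and Slc25a1 and Slc25a39 lie at the low end.

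In input all 3 carriers with other symbols were less labelled than the median gene: Mtch1 (-1.56), Mtch2 (-1.41) and Ucp2 (-1.04). So were 11 of 12 other mitochondrial transport proteins, 7 of 9 presequence import genes and 15 of 21 enzymes, with 0, 1 and 1 above, against 35.9% of all genes below and 35.2% above. The enzyme above was Alas1, which begins heme synthesis, at 2.08 (SE 0.22). Of 14 import components used by carriers 4 were above, such as Timm10 (1.80) and Timm29 (1.75), and 5 below.

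Whether new messages were on ribosomes as often as in the cytoplasm was tested by comparing the converted share of footprints with that of input. Of 30 carriers tested over the 16 labelled libraries, 13 had a lower share in footprints and 0 a higher one (edgeR), against 59.4% and 0.145% of 8276 genes. No carrier was higher at an unadjusted p under 0.05 or by limma either. The median log2 odds ratio was -0.66 for carriers and -0.79 for all genes.

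Slc25a3 input reads were converted in 0.674% to 5.23% and its footprints in 0.331%, 0.620%, 1.36%, 2.48% and 3.09% at 20 to 120 min of experiment 1. Experiment 2 gave 0.630%, 1.35% and 1.25% in input and 0.270%, 0.303% and 0.570% in footprints. In the unlabelled lysate the Slc25a3 shares were 0.486% in input and 0.409% in footprints. The footprint values of 0.331%, 0.270% and 0.303% were below that background, so new RNA cannot be told from background in them. That background was measured in experiment 1, and experiment 2 had no unlabelled lysate. The odds ratio was fitted without subtracting the background. The Slc25a3 footprint share was the lower in 8 of 8 labelled lysates, with a log2 odds ratio of -1.11 (SE 0.19, adjusted p = 1.34e-07). Relative to the median gene of each library it was -0.20 and not called (limma with lysate as a block, adjusted p = 0.497). Slc25a5 footprints held 0.527%, 1.46%, 2.35%, 3.35% and 4.31% against 0.986%, 1.75%, 3.09%, 3.41% and 5.51% in input. It was also lower in 8 of 8 lysates (-0.61, SE 0.17, adjusted p = 0.00185), and so was Slc25a4 (-0.48, SE 0.21, adjusted p = 0.0354). Centred on the median gene of each library, both values turned positive, to 0.31 for Slc25a5 and 0.43 for Slc25a4, and neither was called (limma with lysate as a block, adjusted p = 0.319 and 0.201). With lysate as a block, the Slc25a4 call was lost (adjusted p = 0.0886), and it was also lost without the 40 min lysate of experiment 1 or any lysate of experiment 2.

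Among the lowest odds ratios were those of Slc25a13 (-1.30, SE 0.25, adjusted p = 4.15e-06), Slc25a40 (-1.28, SE 0.47), Slc25a22 (-1.20, SE 0.44) and Slc25a28 (-1.17, SE 0.37). Slc25a13 rested on 7 to 89 converted reads per labelled library and was lower in 8 of 8 lysates. The others had 0 or 1 converted read in some libraries. Without the 30 min lysate of experiment 2, 7 carriers were called, with Slc25a40 and Slc25a22 among those lost (adjusted p = 0.0973 and 0.0714). In experiment 1 alone 5 carriers were called. Slc25a25, the most labelled carrier, was lower in 8 of 8 lysates and not called (-0.49, SE 0.26, adjusted p = 0.088). Slc25a15 was the only tested carrier with a positive value (0.31, SE 0.41).

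The comparison was repeated relative to the median gene of each library. After that centring limma called 0 of 30 carriers, against 0.773% of 8276 genes, a count near that share, with 6 carriers at an unadjusted p under 0.05. Those with the lowest p were Slc25a15 (1.15, SE 0.30, adjusted p = 0.0882) and Slc25a11 (0.52, SE 0.17, adjusted p = 0.158).

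At 20 to 40 min 14 of 22 tested carriers had the lower converted share in footprints, against 74% of 6759 genes, and 0 the higher one, none at an unadjusted p under 0.05. The median was -1.19 for carriers and -1.12 for all genes. Footprints at 20 min of experiment 2 held 0.313% converted reads over all genes and 0.321% over carriers. At 20 min of experiment 1 these shares were 0.458% and 0.438%, and without 4sU they were 0.298% and 0.328%. The fit did not subtract this background, and its part in the early values was not tested. Slc25a3 stood at -1.42 (SE 0.23), with footprint shares at 20 and 30 min below its share without 4sU. Slc25a32 stood at -1.71 (SE 0.39) and Slc25a13 at -1.79 (SE 0.32). At 60 to 120 min, in experiment 1 only, 2 of 26 were lower and 0 higher, against 20.9% and 0.502% of 6977 genes: Slc25a3 (-0.62, SE 0.16) and Slc25a12 (-0.56, SE 0.21). These 2 were not called with lysate as a block (adjusted p = 0.141 and 0.158) or without the 60 or the 120 min lysate. Without the 90 min lysate 4 carriers were called, Slc25a3 among them but not Slc25a12 (adjusted p = 0.12). The early calls of Slc25a4, Slc25a17 and Slc25a44 were lost with that block (adjusted p = 0.0803, 0.0504 and 0.0931), and 7 carriers were called without the 30 min lysate.

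The change from short to long labelling was called for 1 of 30 carriers, against 3.94% of 8276 genes, a count near that share. Its median was 0.88 over carriers and 0.71 over all genes, and 26 carriers had a positive value. The carrier called was Slc25a28 (mitoferrin-2). Its input reads were converted in 0.752%, 1.29%, 8.47%, 15.98% and 31.9% at 20 to 120 min of experiment 1, and its footprints in 0%, 0.383%, 4.44%, 11.3% and 32.4%. In experiment 2 input gave 0.693%, 1.54% and 2.23%, and footprints 0.152%, 0.198% and 0%. The early footprint values came from 0 to 2 converted reads, and the materials met at 120 min. The odds ratio was -2.86 early (SE 0.69, adjusted p = 1.59e-04) and rose by 2.36 late (SE 0.76, adjusted p = 0.0493). With lysate as a block the change was 1.95 and not called (adjusted p = 0.237), and it was not called when any 1 lysate of 60 min or more or of experiment 2 was left out (adjusted p = 0.0607 to 0.223). All late lysates were of experiment 1, so experiment and labelling time are partly mixed in this change. The 20 min footprint shares of experiment 2 lay close to those without 4sU, as given above. The part of this background in the change was not tested.

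**Figure D5:**
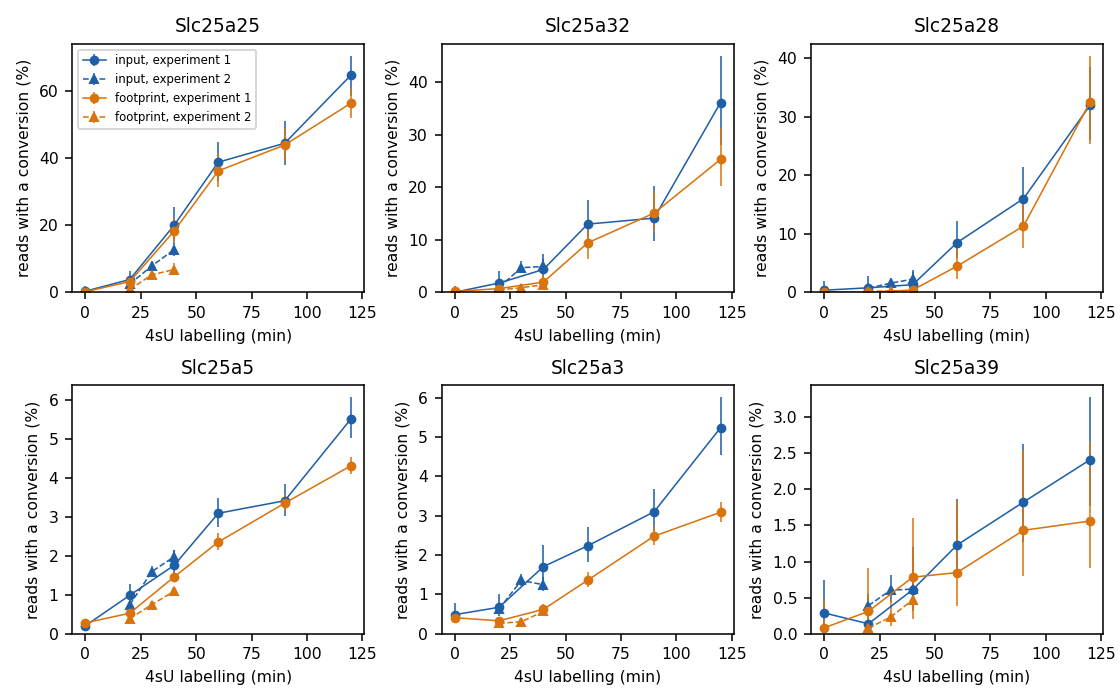
Percentage of reads with a T-to-C conversion over minutes of 4sU for 6 carriers in input and footprints of both experiments, with 95% Wilson intervals (vertical axes differ by gene). Slc25a25 reaches 64.8% in input at 120 min, Slc25a39 stays at or under 2.41%, and Slc25a28 footprints start near 0 and meet input at 120 min.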

How the data were processed

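The authors deposited raw counts: reads of a gene, split into columns by how many T they cover (0 to 20) and how many of these read as C (0 to 3). The headings are not explained, and this reading rests on them and on 0 reads having more conversions than T. The submitters' processing notes name Bowtie 0.12.8 and mm10. How reads were assigned to genes, and over which region, is not stated in the sources used. Per the labels' protocols, fragments of 25 to 35 nt were taken and 4sU was converted with NaIO4.

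Columns were summed per gene, and a gene absent from a library counted as 0. Read counts were fitted with edgeR 4.0.16 (TMM, filterByExpr, robust quasi-likelihood tests), conversion in footprints against input with edgeR's design for methylation counts, and relative labelling with limma 3.58.1 on log2 odds (pseudocount 0.5), in R 4.3.3. Fits of conversion took genes with at least 50 reads on average and at least 50 converted reads in total. Each fit covered all genes, and Benjamini-Hochberg adjusted p under 0.05, over all genes tested, was the call. Tests are two-sided. The scripts were tested on simulated data. Named are Slc25a3, Slc25a4 and Slc25a5, the 5 highest and 5 lowest called carriers of the material and labelling comparisons, up to 3 called carriers per direction elsewhere and examples by role; other called carriers are named to account for members. The values of 1 carrier are not reported here, though it is in the counts. Members and lists were chosen with earlier results of these data known.

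Input and footprints are paired by lysate, per the labels' protocols. With material means removed, the paired profiles had correlations from 0.12 to 0.599, and for 3 of 9 lysates the partner was the best match. Alternatives were DESeq2 1.42.0 size factors and Wald test, no low-count filter, lysate or experiment as a block, single experiments, a pseudocount of 2, at least 200 reads, background subtraction, at least 2 conversions, limma for conversion and leaving out each lysate. Added after seeing the data were conversions per T position, centring on the library median, experiment 2 alone for conversion and labelling, and leaving out lysates in the experiment, early, late and change fits. Genes were matched to GENCODE vM21 by symbol (36 of 36).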

Additional observations from a re-analysis of the deposited data

Results flagged for a closer look

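The footprint-to-input ratio differed between the 2 experiments at 20 and 40 min, by the test of the difference itself, for 4 carriers: Slc25a22 (log2 -1.05, experiment 2 minus experiment 1), Slc25a3 (-0.43), Slc25a10 (0.44) and Slc25a20 (0.61). The Slc25a3 and Slc25a10 calls were lost with lysate as a block and when any 1 of the 4 lysates was left out, and those of Slc25a22 and Slc25a20 without the 20 or the 40 min lysate of experiment 1. The Slc25a22 value moves with its input level, which was higher in experiment 2 (log2 1.06), and experiment 2 was sequenced more deeply; the part of depth was not tested.

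For Slc25a28 the conversion odds ratio of footprints to input differed between long and short labelling, by 2.36 on the log2 scale. This came from 0 to 2 converted footprint reads per library at 20 to 40 min. The median change over all genes was 0.71, and the Slc25a28 call was lost with lysate as a block.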

How the results depend on the processing

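Counts of carriers by footprints against input stayed within 1.5 times in all alternatives run, with 5 to 7 higher and 19 to 20 lower when lysates were left out. Over all comparisons 1638 values were recomputed, for carriers called in the main fit and for Slc25a3, Slc25a4 and Slc25a5. Of these values, 1423 kept direction and call, 178 lost the call, 10 gained it and 27 changed sign. Calls gained by other carriers are not in this tally. Conversion in experiment 2 alone, for example, gave 16 lower, of which 9 were shared with the main fit. The cause of the changes was not tested. Block fits changed calls as given above, and in the counts as follows. With experiment as a block, footprints against input gave 20 lower (19 shared with the fit without it), footprint slopes 7 falling (6 shared), and labelling in input 10 above (9 shared) and 6 below (6 shared). With limma and lysate as a block, conversion gave 14 lower over all labelled lysates (12 shared) and 13 early (11 shared).

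With experiment as a block, input slopes gave 3 carriers rising and 4 falling. For footprint slopes, DESeq2's Wald test and experiment 1 alone each gave 1 rising. The experiment difference of the ratio gave 1 higher with DESeq2's Wald test, 1 without a filter on low counts and 1 with lysate as a block, which also gave 1 lower. Labelling in input gave 3 above and 3 below with at least 2 conversions (7 carriers tested), 5 below in experiment 1 alone, and 4 above and 4 below in experiment 2 alone. Labelling in footprints gave 5 below after background subtraction, 1 above and 1 below with at least 2 conversions (4 tested), and 1 above and 2 below in experiment 2 alone. Conversion in footprints against input gave 5 lower in experiment 1 alone and 0 with limma after centring. With limma and lysate as a block, late conversion gave 0 lower and the conversion change 0 higher.

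Leaving out 1 lysate at a time gave 0 to 2 rising and 0 to 4 falling input slopes, 0 to 2 rising and 0 to 6 falling footprint slopes, 0 to 4 higher and 0 to 5 lower between experiments in input, 0 to 2 and 0 to 4 in footprints, and 0 to 2 and 0 to 2 in the ratio. Labelling in input gave 9 to 10 above and 5 to 8 below, and in footprints 5 to 9 above and 6 to 8 below. Conversion gave 7 to 15 lower over all labelled lysates, 7 to 16 early and 0 to 4 late, and 0 to 3 for the change.

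Among the values of that tally, signs turned only for those given above as not called, except after centring (Slc25a4 0.43 and Slc25a5 0.31 in conversion). Slc25a4 in footprints against input was -0.072 in experiment 1 alone and -0.031 to 0.064 with lysates left out. The ratio slope in experiment 1 alone was -0.00019 for Slc25a3 and 0.060 for Slc25a4, the latter being -0.062 to 0.027 with lysates left out. The input difference of Slc25a5 between experiments was -0.023 to 0.204 with lysates left out. Relative labelling of Slc25a5 was 0.17 in input in experiment 2 alone. In footprints Slc25a4 was -0.17 with a pseudocount of 2, -0.18 after background subtraction, -0.081 in experiment 1 alone, -0.078 in experiment 2 alone, -0.070 per T position and -0.059 to 0.027 with lysates left out, and Slc25a5 -0.024, -0.54 and -0.17 in the first 3. Read and conversion minima limit these fits: 6 members had too few reads or converted reads for conversion and 12 for labelling in input. Only 3 members had a mean of under 50 input reads, so others were left out for few converted reads.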
